A study of Mus musculus with 12 samples.

Results

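Cholesterol synthesis and transport genes of the mouse hippocampus, 30 in all, were followed across 4 groups of male C57BL/6 mice aged 8 weeks. The list was drawn up by symbol for its place in the pathway, with earlier results of these data known, and all 30 were matched by gene identifier to rows of a count table that holds 35812 Ensembl gene IDs. The F0_Dep mice had stress-induced depression, and the F0_Ctl mice were normal. F1_Dep were sons of stress-induced depressed males, and F1_Ctl were sons of normal males. Each group had 3 mice with 1 library each, made with a stranded mRNA kit. The labels name no transgene or drug for any group, do not say how stress was applied, and do not tie the sons to fathers or litters, so brothers within a group cannot be told apart from unrelated sons. Library totals lay between 18277208 and 23083678 counts.

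Cholesterol does not pass from blood into brain, so brain cells make their own. The enzymes convert acetyl-CoA by way of mevalonate and isoprenoids to squalene, which is closed into a ring and trimmed to cholesterol. When membrane sterol is low, the escort protein Scap carries the transcription factors Srebf1 and Srebf2 from the endoplasmic reticulum to the Golgi for activation, and Insig1 and Insig2 hold Scap back when sterol is plentiful. Glia, above all astrocytes, supply cholesterol on Apoe particles loaded by Abca1 and Abcg1. Neurons take it up through lysosomes, where Npc1 and Npc2 release it, and clear the excess as 24-hydroxycholesterol made by Cyp46a1.

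The genes fell into 18 enzymes of synthesis, 8 before squalene and 10 from squalene on, 5 regulators, and 7 genes of transport and turnover. Abcg1 held 0 to 6.5 counts per library and was removed by the filter on low counts, so 29 members were tested among 16178 genes. FPKM, fragments scaled to transcript length and library size, were deposited for 9 libraries of F0_Dep, F0_Ctl and F1_Dep. In FPKM Abcg1 stood at 20.1, 19.2 and 20.1 in F0_Dep against 15.8, 18.8 and 17.9 in F0_Ctl. Its F1_Dep libraries had 19.1, 21.2 and 19.6 FPKM. The 3 F0_Dep values lay above all 3 F0_Ctl values, with a limma adjusted p = 0.202. The counts and the FPKM of Abcg1 conflict, and the reason was not tested. Per length, the median FPKM over the 9 libraries ran from 4.17 for Stard4, a cytosolic sterol carrier, to 1020 for Apoe. Hmgcs1, which makes hydroxymethylglutaryl-CoA, led the synthesis enzymes with a median of 69.4 FPKM, and Mvd, the mevalonate diphosphate decarboxylase, stood lowest among them at 6.93 FPKM. Counts per library of the 29 tested members lay between 166.0 for Ebp and 39444 for Apoe.

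**Figure D1:**
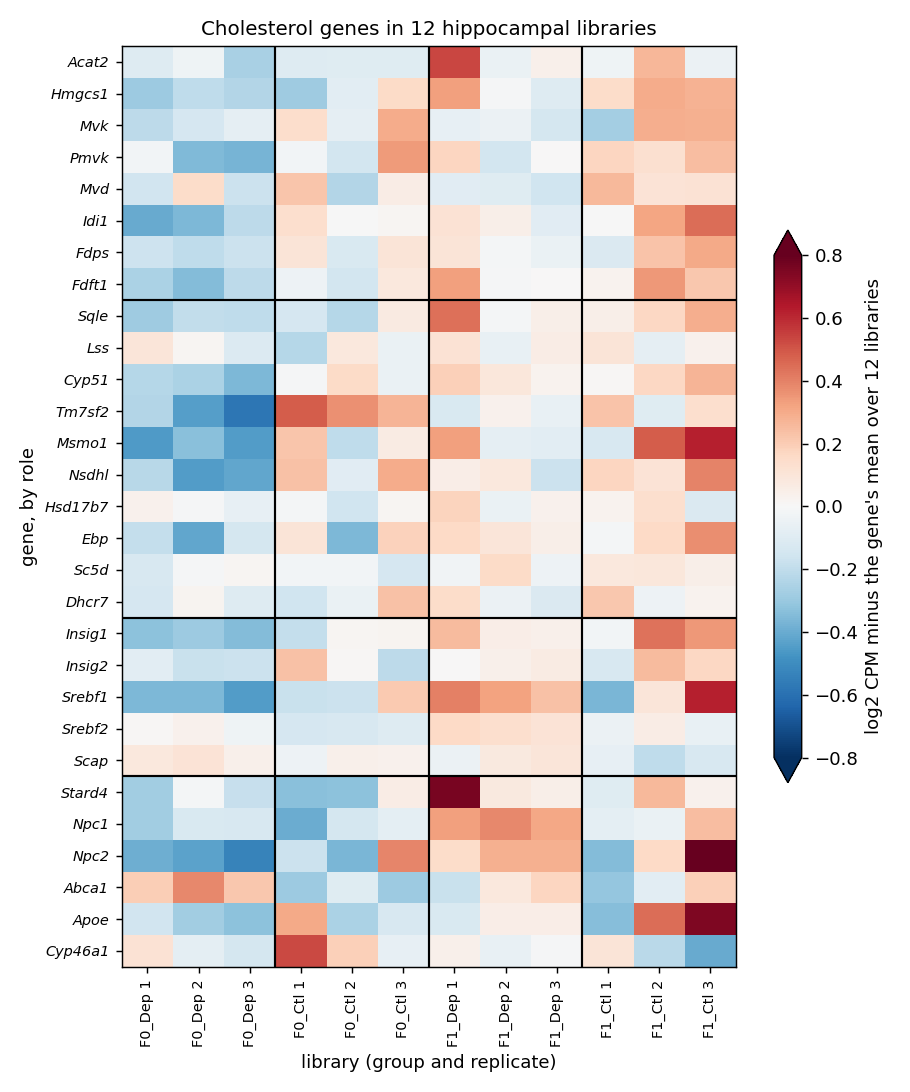
Level of 29 cholesterol genes (rows, by role) in the 12 libraries (columns), as log2 CPM (counts scaled to library size) minus the gene's mean over the 12 libraries; Abcg1 is not shown because its counts are near 0. The F0_Dep columns are mostly blue in the synthesis rows, Tm7sf2 reaches its lowest value there, and F1_Ctl 3 stands out in Msmo1, Srebf1, Npc2 and Apoe.

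Levels from counts are given as CPM, counts scaled to library size, which compare libraries and not genes. Libraries differed in markers of tissue next to the hippocampus. Markers of choroid plexus, which secretes cerebrospinal fluid, summed to 38.8 to 263.0 CPM over 11 genes in F0_Dep. In F0_Ctl the sum was 43.6, 40.4 and 5029 CPM, so F0_Ctl 3 stood apart. The sums were 2803 to 4541 CPM in F1_Dep and 131.1 to 9132 CPM in F1_Ctl, where F1_Ctl 3 was highest. Markers of striatum, a region in front of the hippocampus, summed to 1154 CPM in F1_Dep 1 and to 84.2 to 250.4 CPM in the other 11 libraries. Values without F0_Ctl 3, F1_Ctl 3 and F1_Dep 1 are given beside the results they move; F1_Dep 2 and F1_Dep 3, with 4541 and 4171 CPM of choroid plexus markers, stay in those values. Markers of hippocampal pyramidal neurons, a check of the tissue label, summed to 773.5 to 1389 CPM over 6 genes and were detected in all 12 libraries. Markers of dentate granule neurons, also hippocampal, were low in F1_Dep, with sums of 115.6 to 384.4 CPM over 7 genes. These sums were 535.3 to 724.0 CPM in F0_Dep, 455.3 to 712.7 CPM in F0_Ctl and 589.6 to 756.0 CPM in F1_Ctl.

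In F0_Dep against F0_Ctl, Tm7sf2, a sterol C14-reductase that acts after the ring is closed, was the 1 member of 29 to pass the test. Over all genes, 80 of 16178 passed (0.494%; edgeR quasi-likelihood test, Benjamini-Hochberg adjusted p under 0.05), and between 5, without F0_Dep 3, and 478, without F1_Ctl 3, when 1 library was left out. The other synthesis enzymes mostly stood lower in F0_Dep without passing. Of 18 enzymes, 15 had a negative log2 fold change, including all 8 before squalene, and the median over the 18 was -0.22 against -0.04 over all genes. The summed level of the 18 was 734 ± 8.68 CPM in F0_Dep and 844 ± 48.4 CPM in F0_Ctl (mean and SD, n = 3 each), with 726.6 to 743.5 CPM against 809.4 to 899.3 CPM. All 3 F0_Dep libraries were below all 3 F0_Ctl libraries in this sum. Without F0_Ctl 3 the median log2 fold change was -0.139, and without F0_Ctl 3, F1_Ctl 3 and F1_Dep 1 together it was -0.138.

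Tm7sf2 (ENSMUSG00000024799, chromosome 19, 6062821 to 6068373 of GRCm38, minus strand) stood at 13.5, 11.7 and 10.6 CPM in F0_Dep, against 22.3, 20.4 and 19.2 CPM in F0_Ctl. The highest F0_Dep library was below the lowest F0_Ctl library. It fell by 0.79 ± 0.13 on the log2 scale (edgeR, SE), to a fold of 0.58, with an adjusted p = 0.031. In FPKM it stood at 10.7, 9.25 and 8.08 in F0_Dep, against 17.6, 16.2 and 15.4 in F0_Ctl. The 3′ end of Vps51, a neighbour on the same strand, overlaps the start of Tm7sf2, so the assignment of reads there is uncertain. The call was lost without F0_Dep 1, F0_Dep 2, F0_Dep 3, F0_Ctl 1, F1_Dep 2 or F1_Dep 3, with edgeR adjusted p of 0.0549 to 0.203 and a log2 fold change of -0.87 to -0.71, and with the F0 groups fitted alone (adjusted p = 0.0705). Without F0_Ctl 3, F1_Ctl 3 and F1_Dep 1 it held, with an edgeR adjusted p = 0.0214.

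Nsdhl and Cyp51 came next among the enzymes by p. Nsdhl, a dehydrogenase that helps to remove the methyl groups at C4, stood at 16.0, 13.6 and 13.9 CPM in F0_Dep, against 21.9, 17.4 and 22.8 CPM in F0_Ctl. Its groups did not overlap, and its log2 fold change was -0.51 ± 0.13 with an edgeR adjusted p = 0.0845; without F0_Ctl 2 it passed. Cyp51, the C14-demethylase whose product Tm7sf2 reduces, stood at 50.4, 49.5 and 46.1 CPM in F0_Dep, against 58.7, 65.7 and 57.1 CPM in F0_Ctl. Its groups did not overlap either, and its log2 fold change was -0.31 ± 0.09 with an edgeR adjusted p = 0.106. DESeq2 called both Nsdhl and Cyp51, among 1101 of 16178 genes in all. In FPKM the Cyp51 groups overlapped, with a difference of -0.14 ± 0.11 (limma adjusted p = 0.356). Msmo1, the C4-methylsterol oxidase that works with Nsdhl, had 49.9 ± 2.32 CPM in F0_Dep and 68.0 ± 9.80 CPM in F0_Ctl (SD, n = 3 each). Idi1, which interconverts the isoprenoid building blocks, had 43.6 ± 3.05 CPM in F0_Dep and 56.4 ± 2.91 CPM in F0_Ctl (SD, n = 3 each).

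From counts, the F0 groups did not overlap for 7 of the 18 enzymes, all lower in F0_Dep, and for none in the higher direction. These were Idi1, Fdps, Fdft1, Cyp51, Tm7sf2, Msmo1 and Nsdhl. Over all members, 10 of 29 lay apart and lower and 2 apart and higher, against 13.7% of all genes lower and 13.7% higher. Before squalene the log2 fold changes ran from -0.37 for Idi1 to -0.03 for Acat2, which joins acetyl-CoA units, with -0.18 for Hmgcs1 and, for the kinases Mvk and Pmvk, -0.27 and -0.31. Among the later enzymes Ebp, a sterol isomerase, had -0.24, Sqle, which oxidises squalene, -0.14, and Dhcr7, which acts last, -0.09. Lss, Hsd17b7 and Sc5d, which close the ring, reduce a ketone and add a double bond, had log2 fold changes of 0.06, 0.04 and 0.02. Markers of other cell types stood lower in F0_Dep as well. Myelinating oligodendrocyte markers were lower for 10 of 11 genes with a median log2 fold change of -0.52, and summed to 2986 to 3316 CPM in F0_Dep against 2275 to 6413 CPM in F0_Ctl. Endothelial and pericyte markers were lower for 12 of 13 genes (median -0.32, with Rgs5 past the test). Microglia markers were lower for 8 of 9 (median -0.29). Their sums overlapped, at 321.5, 318.5 and 296.4 CPM in F0_Dep against 473.9, 319.6 and 304.7 CPM in F0_Ctl. Choroid plexus markers were lower for 11 of 11 (median -2.82), and their sums overlapped too. F0_Dep had 38.8 to 263.0 CPM, against 43.6 and 40.4 CPM in F0_Ctl 1 and F0_Ctl 2 and 5029 CPM in F0_Ctl 3. Striatum markers were lower for 8 of 8 (median -0.60), with sums of 84.2 to 101.1 CPM in F0_Dep and 102.6 to 193.1 CPM in F0_Ctl. Astrocyte markers had a median of -0.04, and neuron markers were higher for 8 of 9 genes (median 0.18). The part of these cell types in the enzymes' values was not tested, and in whole tissue fewer cells of a type and less RNA per cell cannot be told apart.

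**Figure D2:**
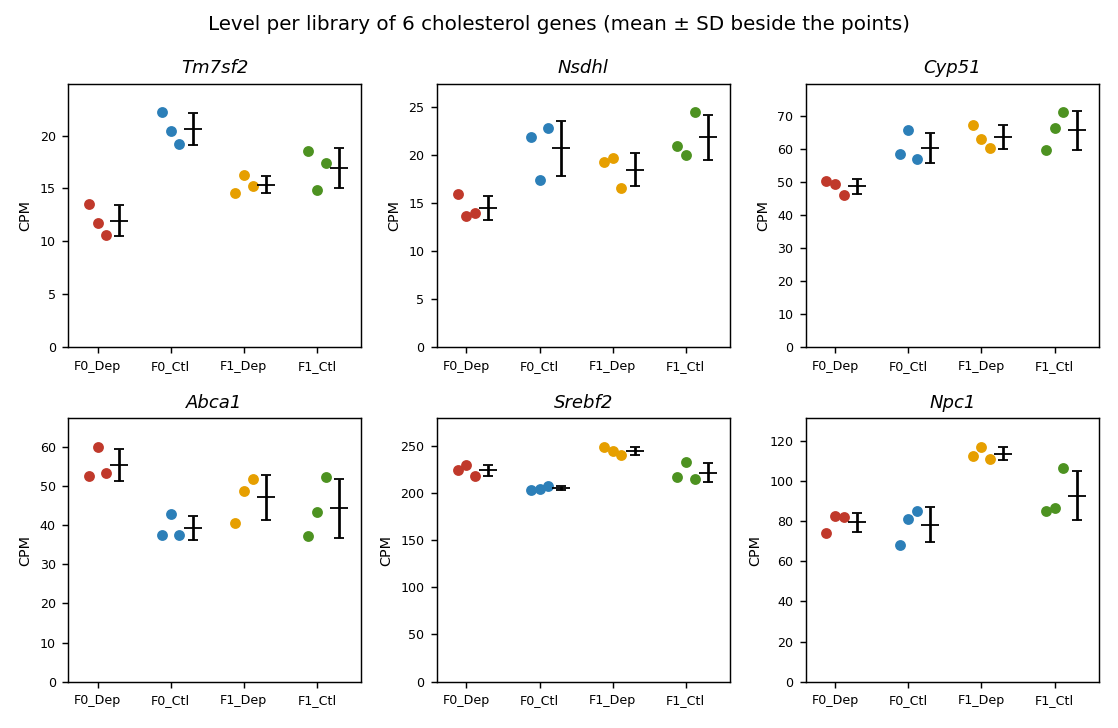
CPM in each library (points) with the group mean and SD (bars, n = 3) for 6 members, with F0_Dep, F0_Ctl, F1_Dep and F1_Ctl from left to right and axes that start at 0. Tm7sf2, Nsdhl and Cyp51 are lower and Abca1 and Srebf2 higher in F0_Dep than in F0_Ctl without overlap, and Npc1 is highest in F1_Dep.

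Start-site sequences were read for the members that stood lower together, because sterol genes are known to carry a sterol regulatory element, where Srebf1 and Srebf2 bind, beside CCAAT and GC boxes. RefSeq windows on GRCm38.p6, from 250 bases before to 50 after the start, were found for 24 of the 30 members. The sterol regulatory element, searched as TCACNCCAC on both strands, was found in 1 of the 24, Hmgcs1, and in 1.24% of 32851 windows of all genes. Only exact matches to these letters were counted, so the search cannot show that the other windows lack an element. CCAAT was found in 19 of 24 windows, 13 of them among 15 synthesis enzymes, against 37.4% of all windows. GGGCGG was found in 20 of 24, 14 of them among the 15 enzymes, against 35.7% of all windows. The 32851 windows belong to 27025 genes and were not matched to the members for expression, and each member gave 1 window. A match is a description of letters and not a measured binding site. The Hmgcs1 element and the CCAAT matches before the RefSeq starts of Tm7sf2, Cyp51 and Nsdhl, the enzymes with the smallest p, are shown with 10 bases on each side, 5′ to 3′ on the gene's strand, the match in capitals (ATTGG is CCAAT on the other strand).
Hmgcs1, chr13:119690204-119690232, plus strand: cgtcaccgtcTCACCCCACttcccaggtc
Tm7sf2, chr19:6067883-6067907, minus strand: cccagcgctgATTGGctactgtgct
Cyp51, chr5:4104712-4104736, minus strand: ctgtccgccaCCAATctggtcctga
Nsdhl, first match, chrX:72918402-72918426, plus strand: cccgcttcccATTGGtttgggaacg
Nsdhl, second match, chrX:72918491-72918515, plus strand: gactagcctcATTGGgcaaaatcat
The matches begin 137 bases before the RefSeq start in Hmgcs1, 47 in Tm7sf2, 29 in Cyp51, and 109 and 20 in Nsdhl. These distances hold for the RefSeq starts. In GENCODE the Tm7sf2 and Cyp51 sites lie inside their own genes, and the Tm7sf2 site also inside Vps51. The 250 bases before the start hold annotated UTR of Tm7sf2 and Vps51 for Tm7sf2, of Cyp51 for Cyp51, and of Cetn2 for Nsdhl. CCAAT was also in the windows of Lss, Hsd17b7 and Sc5d. Their log2 fold changes in F0_Dep against F0_Ctl were 0.06 ± 0.10, 0.04 ± 0.10 and 0.02 ± 0.08 (SE). The motif was absent from the windows of Acat2 and Dhcr7, which had -0.03 ± 0.15 and -0.09 ± 0.12. Each of these values lay within its SE of 0, and a link of CCAAT to the fold changes was not tested. Abca1, which stood higher in F0_Dep, has no CCAAT in its window and GC boxes that begin 163 and 97 bases before the start, in capitals in the 250 bases before its start.
Abca1, chr4:53159896-53160145, minus strand: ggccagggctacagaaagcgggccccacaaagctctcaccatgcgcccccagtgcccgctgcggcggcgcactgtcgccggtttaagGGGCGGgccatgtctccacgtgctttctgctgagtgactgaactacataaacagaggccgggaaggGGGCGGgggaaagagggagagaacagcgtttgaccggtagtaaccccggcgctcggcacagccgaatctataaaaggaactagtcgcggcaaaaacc

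Among the 5 regulators no member passed in F0_Dep against F0_Ctl, with 1, Insig1, at an unadjusted p under 0.05 by edgeR against 19.7% of all genes, and none called by DESeq2 or limma voom. Their median log2 fold change was -0.17, and -0.031 without F0_Ctl 1. Insig1 stood at 45.5, 46.7 and 45.1 CPM in F0_Dep, against 50.2, 57.8 and 58.1 CPM in F0_Ctl, with no overlap and a log2 fold change of -0.27 ± 0.12 (edgeR adjusted p = 0.225). Srebf1 had 43.7 ± 1.48 CPM in F0_Dep and 55.7 ± 8.84 CPM in F0_Ctl (SD, n = 3 each), again without overlap. Srebf2, which favours cholesterol genes where Srebf1 favours those of fatty acids, went the other way. Its levels were 224.4, 229.0 and 217.9 CPM in F0_Dep, against 203.4, 204.0 and 207.7 CPM in F0_Ctl, apart and higher, with a log2 fold change of 0.13 ± 0.07 (edgeR adjusted p = 0.338). In FPKM the Srebf2 and Insig1 groups overlapped, with differences of -0.04 ± 0.09 and -0.06 ± 0.13. Scap stood at 98.0, 99.5 and 94.8 CPM in F0_Dep, against 89.8, 94.8 and 94.5 CPM in F0_Ctl, and the groups overlapped narrowly. Insig2 overlapped as well, with a log2 fold change of -0.17 ± 0.12.

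Transport and turnover genes were split in F0_Dep against F0_Ctl, with 3 higher and 3 lower of the 6 tested and none past the test. The median log2 fold change of -0.11 was -0.048 without F0_Ctl 1 and -0.041 without F0_Ctl 3. By edgeR 1 was at an unadjusted p under 0.05, against 19.7% of all genes. DESeq2 and limma voom each called that gene, Abca1, among 1101 and 458 genes in all. Abca1 (ENSMUSG00000015243, chromosome 4, 53030787 to 53159895), which exports cholesterol to apolipoproteins, stood at 52.6, 60.0 and 53.4 CPM in F0_Dep, against 37.5, 42.8 and 37.6 CPM in F0_Ctl. Every F0_Dep library exceeded every F0_Ctl library, and the log2 fold change was 0.49 ± 0.13 with an edgeR adjusted p = 0.0882; without F1_Ctl 3 it passed. Cyp46a1 stood at 127.9, 111.9 and 107.1 CPM in F0_Dep, against 170.5, 135.3 and 113.1 CPM in F0_Ctl, with overlap and a log2 fold change of -0.27 ± 0.15 (edgeR adjusted p = 0.355). Npc1 stood at 73.9, 82.5 and 82.0 CPM in F0_Dep, against 68.2, 81.2 and 84.9 CPM in F0_Ctl, and the groups overlapped. Npc2, its soluble partner, had 35.9 ± 1.81 CPM in F0_Dep and 48.7 ± 13.8 CPM in F0_Ctl (SD, n = 3 each), where F0_Ctl 3 alone reached 64.3 CPM. The Npc2 groups were apart and lower, with F0_Dep 1 at 37.4 CPM close to F0_Ctl 2 at 38.1 CPM. Apoe had 986 ± 61.7 CPM in F0_Dep and 1170 ± 247 CPM in F0_Ctl (SD, n = 3 each), with overlap, and Stard4 had a log2 fold change of 0.03 ± 0.19.

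The deposited FPKM values of the same libraries gave a partly different set in F0_Dep against F0_Ctl. Tested with limma on log2(FPKM + 1), 6 of 30 members passed, 5 lower and 1 higher, where 19.2% of 13820 genes passed, a background far above that of the counts. Tm7sf2 had a difference of -0.76 ± 0.11 (limma adjusted p = 0.012), Nsdhl one of -0.41 ± 0.11 (limma adjusted p = 0.032) and Abca1 one of 0.50 ± 0.12 (limma adjusted p = 0.023). These lay close to the log2 fold changes from counts. Mvk, the mevalonate kinase, stood at 5.55, 5.93 and 5.80 FPKM in F0_Dep, against 8.87, 7.81 and 9.81 FPKM in F0_Ctl. Cyp46a1 stood at 47.6, 39.7 and 39.9 FPKM in F0_Dep, against 74.2, 60.8 and 54.5 FPKM in F0_Ctl. Neither pair of groups overlapped. Mvk fell by 0.54 ± 0.10, Srebf1 by 0.63 ± 0.13 and Cyp46a1 by 0.56 ± 0.13 on the log2(FPKM + 1) scale (limma adjusted p of 0.015, 0.0184 and 0.022). From counts these 3 genes had smaller log2 fold changes of -0.27, -0.35 and -0.27. Idi1 and Msmo1 differed the other way, with -0.06 and -0.20 in FPKM against -0.37 and -0.45 from counts. The F0 groups of Idi1, Msmo1, Cyp51 and Fdft1 lay apart in counts but overlapped in FPKM. Of the 18 enzymes 4 lay apart and lower in FPKM, and 1, Hsd17b7, lay apart and higher. The share of all genes that lay apart in FPKM was not counted, so these numbers cannot be set against a background. No member passed in FPKM without F0_Dep 2 or without F0_Dep 3, where 3 and 4 genes did in all, and 9 passed without F0_Ctl 2, where 4402 genes did.

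**Figure D3:**
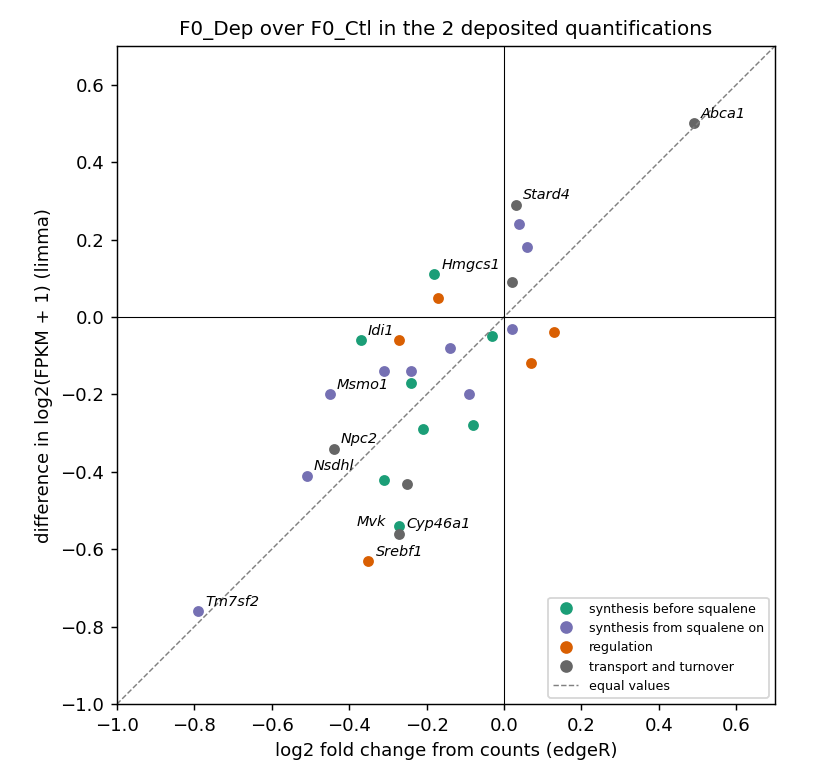
Difference between F0_Dep and F0_Ctl for 29 members in the 2 deposited quantifications, as log2 fold change from counts (x axis) and as difference in log2(FPKM + 1) (y axis), with the line of equal values dashed. Tm7sf2, Nsdhl and Abca1 lie near the line, Mvk, Srebf1 and Cyp46a1 below it, and Idi1, Msmo1 and Hmgcs1 above it.

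In the sons, F1_Dep against F1_Ctl, no member passed by edgeR, where 27 of 16178 genes did (0.167%), or 0 to 678 with 1 library left out. At an unadjusted p under 0.05 there were 2 members, Npc1 and Scap, both higher in F1_Dep, where 14.8% of all genes were. DESeq2 called no member among 545 genes in all. Limma voom called 3, Msmo1, Npc1 and Scap, where it called 1517 of 16178 genes. The synthesis enzymes had a median log2 fold change of -0.11, with 14 of 18 lower, against -0.02 over all genes. That median was -0.065 to -0.063 without F1_Dep 3, F1_Ctl 2 or F1_Ctl 3, and -0.059 with no scaling beyond library totals. Their summed level was 890 ± 92.8 CPM in F1_Dep and 968 ± 68.6 CPM in F1_Ctl (SD, n = 3 each), with overlap. Mvd and Nsdhl lay apart and lower, and Srebf2, Scap and Npc1 apart and higher, against 10.3% of all genes lower and 8.72% higher.

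Tm7sf2 stood at 14.6, 16.2 and 15.3 CPM in F1_Dep, against 18.6, 14.9 and 17.4 CPM in F1_Ctl, so its groups overlapped in the sons. Nsdhl stood at 19.3, 19.7 and 16.5 CPM in F1_Dep, against 21.0, 20.03 and 24.5 CPM in F1_Ctl. Cyp51 stood at 67.5, 63.1 and 60.4 CPM in F1_Dep, against 59.6, 66.4 and 71.3 CPM in F1_Ctl. Of these enzymes Nsdhl alone was apart, with a log2 fold change of -0.24 ± 0.13 and an edgeR adjusted p = 0.425. Tm7sf2 and Cyp51 had log2 fold changes of -0.14 ± 0.12 and -0.05 ± 0.09.

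Npc1 (ENSMUSG00000024413, chromosome 18, 12189692 to 12236400), the lysosomal membrane protein that passes on cholesterol, stood at 112.7, 117.2 and 110.9 CPM in F1_Dep, against 85.0, 86.5 and 106.6 CPM in F1_Ctl. All F1_Dep values were higher, with a log2 fold change of 0.29 ± 0.11 and an edgeR adjusted p = 0.241. Without F1_Ctl 3, the highest F1_Ctl library, the log2 fold change was 0.43 with an edgeR adjusted p = 0.118. Scap stood at 89.3, 97.4 and 98.5 CPM in F1_Dep, against 88.0, 80.1 and 84.4 CPM in F1_Ctl, narrowly apart, with an edgeR adjusted p = 0.294. Srebf2 stood at 248.9, 244.6 and 240.4 CPM in F1_Dep, against 216.4, 232.9 and 214.4 CPM in F1_Ctl, apart and higher, with a log2 fold change of 0.15 ± 0.07 and an edgeR adjusted p = 0.355.

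Insig1, Abca1 and Cyp46a1 overlapped between the groups of sons. Insig1 stood at 68.2, 59.4 and 58.9 CPM in F1_Dep, against 56.4, 77.4 and 72.7 CPM in F1_Ctl. Abca1 stood at 40.6, 48.7 and 51.8 CPM in F1_Dep, against 37.1, 43.3 and 52.3 CPM in F1_Ctl. Cyp46a1 stood at 121.5, 113.7 and 117.6 CPM in F1_Dep, against 126.8, 101.8 and 89.5 CPM in F1_Ctl. The median log2 fold change was 0.15 over the regulators and 0.12 over 6 transport genes. The first was -0.062 without F1_Ctl 1, and the second 0.258 without F1_Ctl 3 and 0.058 without F1_Dep 1.

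F1_Ctl libraries spread widely. Apoe ran from 928 to 1969 CPM, Npc2 from 38.5 to 95.7 CPM, Srebf1 from 44.3 to 87.8 CPM and Msmo1 from 60.6 to 101.9 CPM, with F1_Ctl 1 lowest and F1_Ctl 3 highest in each. F1_Dep libraries were closer together for these genes, with Apoe at 1078 to 1216 CPM and Npc2 at 54.2 to 59.8 CPM. Sequencing lanes are named for F1_Ctl alone, and a difference in sequencing cannot be told apart from that group. Markers moved with the comparison too. Striatum markers were higher in F1_Dep for 8 of 8 genes (median log2 fold change 1.81), and myelin markers for 10 of 11 (median 0.19). Dentate granule markers were lower for 7 of 7 (median -1.41), microglia markers for 9 of 9 (median -0.26) and astrocyte markers for 8 of 10 (median -0.14). Their part in the members' values was not tested. F1_Dep 1, the library with the striatum markers, was the highest F1_Dep library for 14 of 18 enzymes and 19 of 29 members, against 38.1% of all genes.

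**Figure D4:**
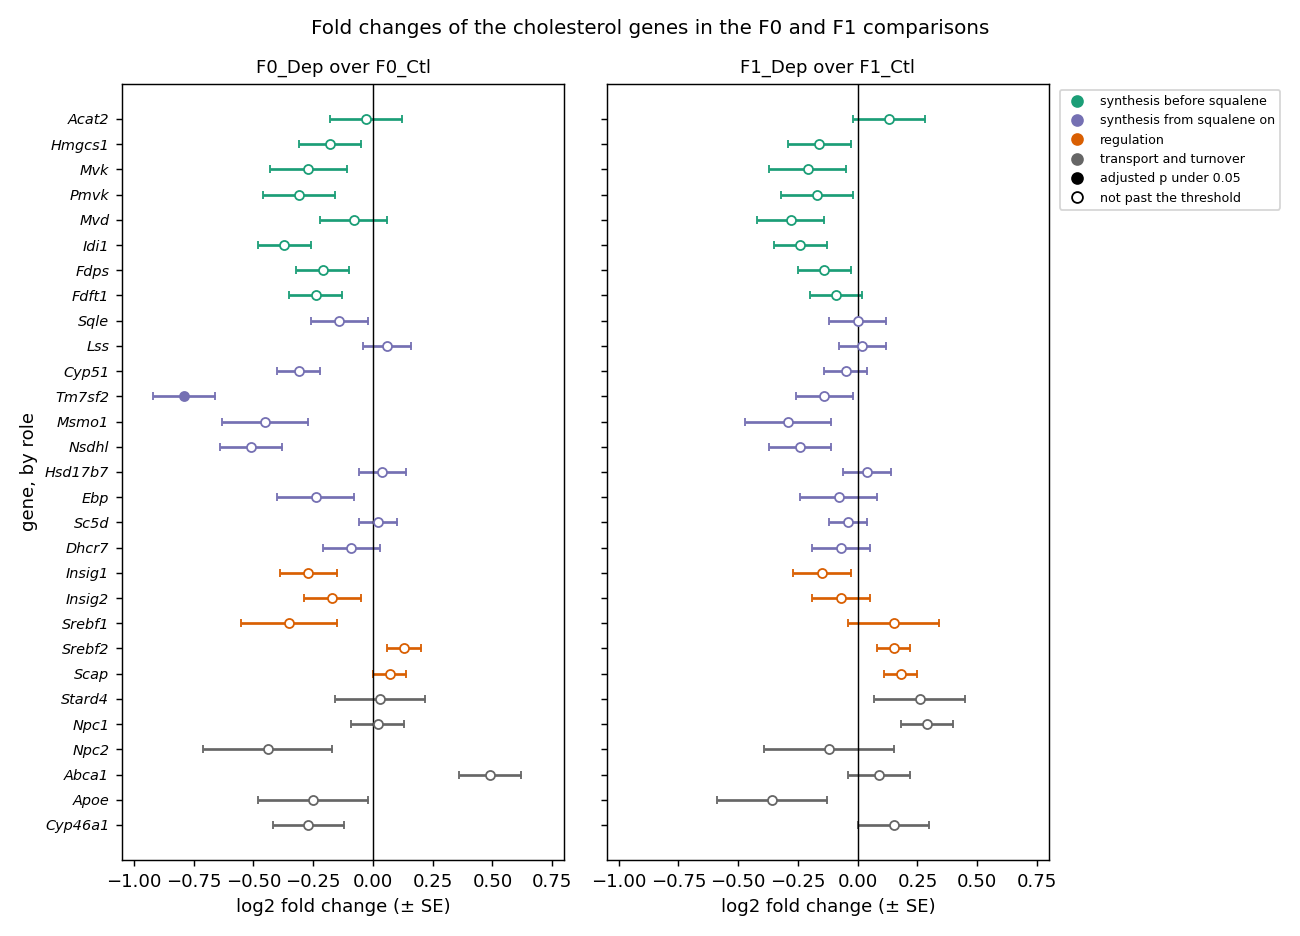
Log2 fold change with its standard error for 29 members (rows, coloured by role) in F0_Dep over F0_Ctl (left) and F1_Dep over F1_Ctl (right), from edgeR on counts; filled points passed an adjusted p of 0.05. Tm7sf2 at -0.79 is the 1 filled point, and most synthesis enzymes lie left of 0 in both panels.

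Whether the change in the sons differed from that in the stressed mice was tested as an interaction. It passed for 11 of 16178 genes (0.068%) and for no member by edgeR, with 2 members at an unadjusted p under 0.05 against 13.4% of all genes. Tm7sf2 had an interaction of 0.64 ± 0.18 on the log2 scale (edgeR adjusted p = 0.152). It was called by DESeq2 and by limma voom, among 497 and 354 genes in all. Abca1 had an interaction of -0.40 ± 0.18 (edgeR adjusted p = 0.372). The fall of Tm7sf2 in the stressed mice was therefore not shown by edgeR to differ from its change in the sons.

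Over the 4 groups, the F0_Dep mean was the lowest for 19 of 29 members and 14 of 18 enzymes, against 35.0% of all genes. The F1_Ctl mean was the highest for 16 of 29 members, against 27.1% of all genes. F1_Dep was set against F0_Dep directly, a contrast that shares its F0_Dep libraries with the F0 comparison and its F1_Dep libraries with the F1 comparison. Of 29 members 26 stood higher in F1_Dep, with a median log2 fold change of 0.32, and 2 passed, where 464 of 16178 genes did (2.87%), or 8 to 1150 with 1 library left out. Npc1 rose by 0.52 ± 0.11 (edgeR adjusted p = 0.0371), with 112.7, 117.2 and 110.9 CPM in F1_Dep against 73.9, 82.5 and 82.0 CPM in F0_Dep. Cyp51 rose by 0.39 ± 0.09 (edgeR adjusted p = 0.0464). Cyp51 had 67.5, 63.1 and 60.4 CPM in F1_Dep against 50.4, 49.5 and 46.1 CPM in F0_Dep. Neither gene's groups overlapped. Both calls were lost without any 1 of the F0_Dep or F1_Dep libraries and without F1_Ctl 2. Without F1_Ctl 1 or without F1_Ctl 3, 5 members passed, among 1086 and 1150 genes in all. Without F0_Ctl 3, F1_Ctl 3 and F1_Dep 1 the calls were Npc1, Npc2 and Srebf1, among 1343 of 16270 genes.

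Srebf1 had the largest log2 fold change of any member in F1_Dep against F0_Dep, 0.71 ± 0.20, with 75.4, 71.4 and 67.2 CPM in F1_Dep against 44.6, 44.6 and 42.0 CPM in F0_Dep. It missed the threshold with an edgeR adjusted p = 0.067, and Insig1 missed it at 0.44 ± 0.12 with an edgeR adjusted p = 0.0586. In FPKM, Fdft1, Npc1, Npc2 and Srebf1 passed, 4 of 30 members where 10.7% of genes did, and Srebf1 rose by 0.86 ± 0.13 (limma adjusted p = 0.0148). Fdft1, the squalene synthase, stood at 22.0, 19.8 and 19.2 FPKM in F1_Dep, against 15.3, 14.6 and 15.7 FPKM in F0_Dep. Npc2 stood at 16.5, 18.3 and 17.9 FPKM in F1_Dep, against 10.9, 10.9 and 10.4 FPKM in F0_Dep. Both were apart and higher. None of these 4 calls held without F0_Dep 2, F0_Dep 3, F1_Dep 1 or F1_Dep 3, and Srebf1 alone held without F0_Dep 1 or without F1_Dep 2. The synthesis enzymes had a median log2 fold change of 0.325, which was 0.18 without F1_Dep 1 and 0.172 without F0_Ctl 3, F1_Ctl 3 and F1_Dep 1, a value that still holds the choroid plexus markers of F1_Dep 2 and F1_Dep 3. Myelin markers were higher in F1_Dep for 11 of 11 genes with a median of 1.1 (3 past the test, Aspa, Ermn and Ugt8a), and summed to 6262 to 7485 CPM in F1_Dep against 2986 to 3316 CPM in F0_Dep. Choroid plexus markers were higher for 11 of 11 (median 4.01) and striatum markers for 8 of 8 (median 2.36). Dentate granule markers were lower for 7 of 7 (median -1.33). The part of these cell types in the members' values was not tested.

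**Figure D5:**
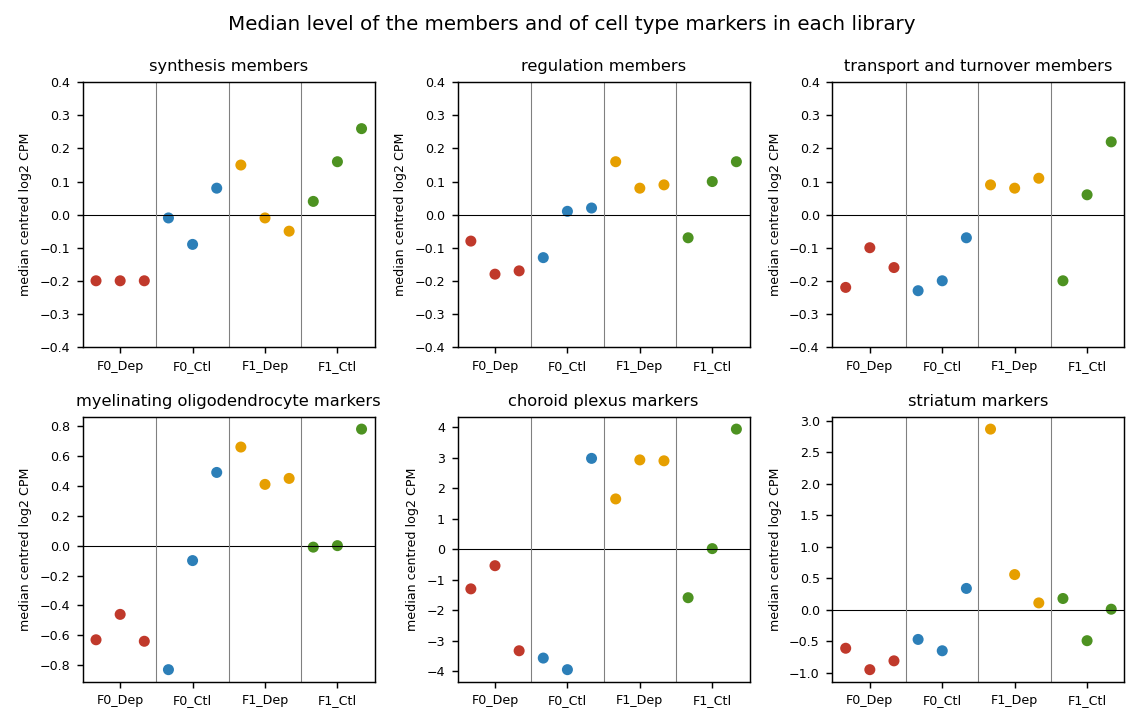
Median over the listed genes of log2 CPM centred on the mean of 12 libraries, for the members by role (upper row, common axis) and for markers of myelinating oligodendrocytes, choroid plexus and striatum (lower row, axes of their own), with F0_Dep, F0_Ctl, F1_Dep and F1_Ctl from left to right. The synthesis median is -0.20 in all 3 F0_Dep libraries and -0.09 to 0.26 in the other 9, and myelin markers are low in F0_Dep and in F0_Ctl 1.

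Against F0_Ctl, which was the control of the F0 comparison as well, F1_Dep showed no passing gene by edgeR (0.0% of 16178, with 2078, or 12.8%, at an unadjusted p under 0.05), while DESeq2 called 410 genes and limma voom 13. With 1 library left out edgeR called 0 to 32 genes, and 618 without F0_Ctl 3, F1_Ctl 3 and F1_Dep 1. Of the members 4 were at an unadjusted p under 0.05, and DESeq2 called Npc1 and Srebf2. Npc1 had a log2 fold change of 0.54 ± 0.11 (edgeR adjusted p = 0.115) and Srebf2 one of 0.25 ± 0.07 (edgeR adjusted p = 0.17), both without overlap. Tm7sf2 stood lower in F1_Dep than in F0_Ctl, also without overlap, with -0.42 ± 0.12 (edgeR adjusted p = 0.191). Between the control groups, F1_Ctl against F0_Ctl, no gene passed by edgeR (0.0%, with 954, or 5.9%, at an unadjusted p under 0.05) and none by DESeq2 or limma voom. Without F1_Ctl 1 edgeR called 400 genes, among them Insig1, without F0_Ctl 3 it called 9, and without F0_Ctl 3, F1_Ctl 3 and F1_Dep 1 it called 23. For the members 5 were at an unadjusted p under 0.05, and Tm7sf2 had a log2 fold change of -0.28 ± 0.12 (edgeR adjusted p = 0.751).

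Other genes of the pathway were counted in 4 further lists. They comprised 9 other regulators, 11 tested sterol enzymes, 16 tested carriers and receptors, and 8 tested fatty acid genes controlled by Srebf1. None passed in F0_Dep against F0_Ctl, with list medians of -0.08, -0.18, 0.05 and 0.15, or in F1_Dep against F1_Ctl, with -0.04, 0.01, 0.19 and 0.13 (edgeR). Of the 44 genes 10 were at an unadjusted p under 0.05 in F0_Dep against F0_Ctl (19.7% of all genes were), where DESeq2 called 1 and limma voom 0, and 10 in F1_Dep against F1_Ctl (14.8% of all genes were), where DESeq2 called 2 and limma voom 12. In F1_Dep against F0_Dep 3 passed, all higher. Cyp27a1, which makes 27-hydroxycholesterol, had 7.61 ± 0.625 CPM in F1_Dep and 2.44 ± 0.296 CPM in F0_Dep. Stard3, a sterol carrier of late endosomes, had 35.9 ± 0.952 CPM in F1_Dep and 24.2 ± 1.34 CPM in F0_Dep. Elovl5, a fatty acid elongase, had 93.1 ± 3.89 CPM in F1_Dep and 62.7 ± 6.24 CPM in F0_Dep (SD, n = 3 for each mean here).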

How the data were processed

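For each Ensembl gene the authors deposited expected counts, some of them fractional, in 12 libraries, and FPKM values in the 9 of F0_Dep, F0_Ctl and F1_Dep. Per the submitters' processing notes, the tools include HISAT2 and Cufflinks 2.2.1 and the build was mm10. The counting tool and its strand setting were not given in the sources used here. Reads shared by overlapping genes are therefore uncertain for Tm7sf2 with Vps51, Fdps with Gm43738, Mvd with Gm20388, Fdft1 with Ctsb, Cyp51 with Akap9, Srebf1 with Rai1 and Npc1 with Rmc1. Symbols matched 35202 IDs; 610 IDs without one held 0.579% of counts. Gene coordinates are those of GENCODE M21 (GRCm38), with which 99.97% of 26305 positions in the FPKM tables matched.

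The rounded expected counts went into edgeR 4.0.16 in R 4.3.3 (TMM scaling, filterByExpr, quasi-likelihood F-test, the 4 groups in 1 fit, Benjamini-Hochberg over 16178 genes, threshold 0.05). CPM are TMM-scaled, and standard errors are approximate. The FPKM test was limma 3.58.1 on log2(FPKM + 1), keeping genes that reached 1 FPKM in 3 or more libraries, a scale that understates changes of low genes. The edgeR script was tested on simulated counts. Alternatives comprised DESeq2 1.42.0, limma voom with library weights, other scalings and filters, a replicate block, and libraries left out. P-values measure the spread between mice of a group, which may share litters. By edgeR this spread was pooled over the 4 groups, which differed in it. The chi-square per degree of freedom between 2 libraries of a group was 4.88 to 20.95 in F0_Dep and F1_Dep. It was 30.87 to 83.99 in F0_Ctl and F1_Ctl. With F1_Dep and F0_Dep fitted alone, edgeR called 3734 genes between them. Replicate numbers did not pair the libraries.

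The members and lists were chosen with earlier results of these data known. Values in every library are given for members past the threshold and for the 3 members of smallest unadjusted p in synthesis, regulation and transport over the F0 and F1 comparisons, and other members are given where counts or ranges needed a name. Sequences are RefSeq's; the Hmgcs1 site is shown as the 1 match of its motif, and windows that hold an annotated UTR before the start are shown as sites only. Some pathway genes were not analysed here.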

Additional observations from a re-analysis of the deposited data

How the results depend on the processing

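In F0_Dep against F0_Ctl, where edgeR called 1 member, DESeq2 called 4 (1101 genes in all), limma voom 2 (458 genes), limma on FPKM 6 under either pseudocount and without the filter on low values, and a fit of the F0 groups alone 0. Omissions of 1 library gave 0 to 2, and 0 to 9 in FPKM, where 6 were called. In F1_Dep against F0_Dep, where edgeR called 2, DESeq2 called 5 (1493 genes), limma voom 14 (4822 genes), a fit of only those groups 12, limma on FPKM 4, with a pseudocount of 0.1 it called 2, and without a filter 1. Omissions gave 0 to 5 from counts and 0 to 6 in FPKM. In F1_Dep against F1_Ctl limma voom called 3 in place of 0 (1517 genes, and DESeq2 545), in the interaction DESeq2 and limma voom called 1 in place of 0 (497 and 354 genes), and in F1_Dep against F0_Ctl DESeq2 called 2 in place of 0, 1 was called without F0_Ctl 3, F1_Ctl 3 and F1_Dep 1, and omissions in FPKM gave 0 to 2. In F1_Ctl against F0_Ctl omissions gave 0 to 1. The replicate block gave 0 members in F0_Dep against F0_Ctl and 1, Npc1, in F1_Dep against F0_Dep; same-numbered libraries of different groups correlated at -0.176 to 0.498 (median -0.012, 18 pairs), so the numbers were not taken as pairs. Over omissions, the median log2 fold change of the regulators ran from -0.204 to -0.031 in F0_Dep against F0_Ctl and from -0.062 to 0.156 in F1_Dep against F1_Ctl, that of 6 transport genes from 0.058 to 0.258 in F1_Dep against F1_Ctl, and that of the enzymes from 0.18 to 0.373 in F1_Dep against F0_Dep, or 0.172 without those 3 libraries. Leaving out these 3 together, which keeps the choroid plexus markers of F1_Dep 2 and F1_Dep 3, was chosen with their marker levels known, and the FPKM omissions after seeing the data. No call of a single member changed sign under any alternative run. The cause of these shifts was not tested. With 3 mice a group, missing the threshold does not show that levels were equal.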
